A study of Homo sapiens with 6 samples.

Results

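The 10 genes described here, BCL3, NFKBIE, TNFAIP2, IER3, TRAF1, TRAF3IP2, TNFRSF1B, RIPK1, RIPK4 and LITAF, encode regulators of NF-kB, components of signalling from tumour necrosis factor (TNF) receptors and genes that respond to TNF. They were found by gene symbol among 405 genes that the authors had listed as differing between Panc-1 cells given Gli3T and Panc-1 cells given an empty vector. The members were thus chosen by their expression values in this same contrast. Every one of the 10 was higher under the Gli3T label, and since the choice used that contrast, their differences are given as a description with no test. Panc-1, an established line, was derived from a human pancreatic ductal tumour. The 3 arrays labelled Gli3T came from cells transfected by Lipofectamine with pCIG-Gli3T, which carries a dominant-negative repressor form of the Gli transcription factors with IRES-GFP. The 3 arrays labelled empty vector came from cells given pCIG alone. In both groups the cells carrying GFP were collected by sorting at 24 h, so each array reflects transiently transfected cells of 1 line, and RNA was measured on Affymetrix whole-transcript arrays. Whether the 3 arrays of a group stem from different cultures is not stated in the labels, and their spread, with every p-value based on it, could be technical only.

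NF-kB is a family of dimeric transcription factors held in the cytoplasm by IkB proteins. TNF binds receptors that gather adaptors of the TRAF family and the kinase RIPK1, and the complex activates IkB kinases that mark IkB proteins for destruction. NF-kB then enters the nucleus and switches on target genes, among them genes for its own inhibitors, which closes the loop. In pancreatic carcinoma cells NF-kB is often active without added cytokine.

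Promoter windows are shown for 3 of the genes because Gli3T and NF-kB both act through DNA sites near genes. A shared control of the members was not tested. RefSeq windows of 300 bases on GRCh38.p14, from 250 bases before a gene start to 50 after it, were matched for 7 of the 10 genes, with 14 windows in all. BCL3 was chosen for its matches to the NF-kB motif and to the core of the Gli motif, LITAF for its match to the same core, and TNFAIP2 as the member with the largest difference. Capitals mark a match to the kappaB consensus, the binding motif of NF-kB, or to ACCACCC, the core of the Gli motif GACCACCCA. The windows are read 5′ to 3′ on the strand of the gene, chr19:44748458-44748757 (plus strand) for BCL3, chr16:11587417-11587716 (minus strand) for LITAF and chr14:103123211-103123510 (plus strand) for TNFAIP2.
BCL3: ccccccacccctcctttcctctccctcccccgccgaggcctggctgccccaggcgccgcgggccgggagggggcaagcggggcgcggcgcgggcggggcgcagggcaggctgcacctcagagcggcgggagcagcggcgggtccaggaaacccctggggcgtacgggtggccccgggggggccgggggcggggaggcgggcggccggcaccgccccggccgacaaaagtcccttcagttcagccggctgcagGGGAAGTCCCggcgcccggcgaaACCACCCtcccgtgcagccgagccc
LITAF: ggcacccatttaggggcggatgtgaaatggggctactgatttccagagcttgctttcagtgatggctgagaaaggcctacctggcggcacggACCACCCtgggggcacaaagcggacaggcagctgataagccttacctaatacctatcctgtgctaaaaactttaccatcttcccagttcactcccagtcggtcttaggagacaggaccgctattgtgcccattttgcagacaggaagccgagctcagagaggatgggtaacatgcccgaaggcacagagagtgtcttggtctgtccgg
TNFAIP2: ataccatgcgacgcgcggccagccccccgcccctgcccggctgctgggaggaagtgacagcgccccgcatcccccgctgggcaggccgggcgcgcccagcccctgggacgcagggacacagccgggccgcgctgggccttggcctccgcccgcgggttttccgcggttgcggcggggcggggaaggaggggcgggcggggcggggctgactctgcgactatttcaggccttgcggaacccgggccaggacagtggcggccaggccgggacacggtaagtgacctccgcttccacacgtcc

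In the BCL3 window a match to the kappaB consensus, GGGAAGTCCC, lay at bases 253 to 262 and matched on both strands, and ACCACCC lay at bases 276 to 282. The LITAF window shown held ACCACCC at bases 93 to 99, while the other windows of LITAF held neither motif. Several genes had more than 1 window, and some of these windows overlapped. The TNFAIP2 window held neither motif. Over both strands, 1 of the 14 windows held the kappaB consensus and 3 held ACCACCC, the third being a window of TRAF1 at chr9:120926747-120927046. Among all 35116 RefSeq windows of the same length, 11.3% held the kappaB consensus and 4.77% held ACCACCC. The longer Gli motif GACCACCCA, which contains that core, was in 0 of the 14 windows and in 0.236% of all windows. A match is a description of letters in a window and says nothing about binding.

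The arrays were read from a table of 32321 probe sets, each value a log2 expression level. Empty vector replicate 1 stood apart from the other 5 arrays. Its correlation with them was 0.980 to 0.985 over all probe sets, its median was 8.53 against 8.38 to 8.42 in the others, and its quartiles spanned 2.69 log2 against 2.92 to 3.02. In the fit with limma over all probe sets, 798 (2.47%) were called at an adjusted p of 0.05, 454 (1.4%) higher and 344 (1.06%) lower in the arrays labelled Gli3T. Without empty vector replicate 1 the count was 2178 and without empty vector replicate 3 it was 69. Without Gli3T replicate 1, 2 or 3 the limma fit called 0, 1 and 0 probe sets (3471, 3751 and 3469 at an unadjusted p under 0.05).

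GLI3, the gene from which Gli3T derives, is set beside the labels. GLI3 and PTCH1 could be named only because they were in the authors' list. Both had thus been selected for a difference in this contrast, and their adjusted p values are no independent check of the labels. The GLI3 probe set read 8.00, 7.92 and 7.71 log2 in the arrays labelled Gli3T, against 9.20, 9.12 and 9.31 in the arrays labelled empty vector. The log2 difference was -1.34 ± 0.11 (SE, n = 3 each; limma adjusted p = 0.00884), and with any 1 array labelled Gli3T left out the adjusted p was 0.0695 to 0.0983. A lower GLI3 signal is not the direction implied by a label of ectopic Gli3T. The position of these probes relative to the construct is not known here. PTCH1, which encodes the receptor for hedgehog ligands and is a known Gli target, was higher by 0.91 ± 0.12 log2 (SE, n = 3 each; limma adjusted p = 0.0224). Without an array labelled Gli3T, or without empty vector replicate 3, its adjusted p was 0.0642 to 0.137. A higher Gli target is likewise not the direction implied by the label of a Gli repressor, and the cause of either direction was not tested. An exchange of the labels was not tested, and it would turn the direction of every difference given here. The groups are therefore called by their labels throughout.

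At the cell surface, TNFRSF1B encodes TNF receptor 2, which lacks a death domain and signals through TRAF proteins (probe set 7897877). It read 10.57, 10.51 and 10.71 log2 in the arrays labelled Gli3T, against 9.33, 9.88 and 9.61 in the arrays labelled empty vector. Every array labelled Gli3T was above every array labelled empty vector, by at least 0.63 log2, and the empty-vector arrays were the more scattered ones, with replicate 1 lowest. In RNA of sorted cells in bulk, more RNA per cell and more cells expressing a gene cannot be told apart. The mean was 10.60 ± 0.10 (SD, n = 3) in the arrays labelled Gli3T and 9.60 ± 0.27 (SD, n = 3) in the arrays labelled empty vector, a difference of 0.99 ± 0.15 log2 (SE) or 1.99-fold.

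Of the TRAF-linked adaptors, TRAF1 is a family member without a RING domain that binds TRAF2 and is itself a known NF-kB target (probe set 8163825). TRAF1 read 9.36, 9.33 and 9.42 log2 in the arrays labelled Gli3T, against 8.45, 8.70 and 8.62 in the arrays labelled empty vector. The groups did not overlap, and the difference was 0.77 ± 0.09 log2 (SE, n = 3 each) or 1.71-fold. TRAF3IP2 encodes Act1, the adaptor that couples the interleukin-17 receptor to NF-kB (probe set 8128939). TRAF3IP2 read 10.74, 10.56 and 10.74 log2 in the arrays labelled Gli3T, against 9.51, 10.04 and 9.89 in the arrays labelled empty vector. Its empty-vector arrays spread over 0.53 log2, with replicate 1 lowest, and its difference was 0.86 ± 0.15 log2 (SE, n = 3 each). TRAF3IP2 and TNFRSF1B had the widest spread of the members among the empty-vector arrays, with an SD of 0.27 for each.

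The RIP kinases differ in role. RIPK1 is recruited to TNF receptor 1 and serves there both as a scaffold for NF-kB activation and as a death-inducing kinase (probe set 8116622). It read 10.52, 10.35 and 10.41 log2 in the arrays labelled Gli3T, against 9.59, 9.92 and 9.91 in the arrays labelled empty vector. RIPK1 had the smallest difference of the 10 genes, 0.62 ± 0.11 log2 (SE, n = 3 each) or 1.53-fold, and the narrowest gap between the groups among the 9 genes with all 6 arrays, 0.43 log2. RIPK4 is a relative with ankyrin repeats that is required for epidermal differentiation (probe set 8070489). It read 10.87, 10.72 and 10.94 log2 in the arrays labelled Gli3T, against 10.08, 10.22 and 9.96 in the arrays labelled empty vector. Its difference was 0.76 ± 0.10 log2 (SE, n = 3 each), and its lowest empty-vector array was replicate 3.

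Both members that encode IkB family proteins were higher in the arrays labelled Gli3T. The other IkB genes were not in the authors' list and could not be read. NFKBIE encodes IkB-epsilon, which holds NF-kB dimers in the cytoplasm (probe set 8126666). It read 10.42, 10.39 and 10.47 log2 in the arrays labelled Gli3T, against 9.67, 9.84 and 9.74 in the arrays labelled empty vector. NFKBIE was the least scattered member in the empty-vector arrays (SD 0.09), and its difference was 0.68 ± 0.08 log2 (SE, n = 3 each) or 1.60-fold. BCL3 encodes a nuclear IkB protein that binds p50 and p52 dimers and can act as a coactivator (probe set 8029465). It read 11.51, 11.57 and 11.57 log2 in the arrays labelled Gli3T, against 10.67, 10.84 and 10.53 in the arrays labelled empty vector. Its difference was 0.87 ± 0.10 log2 (SE, n = 3 each) or 1.83-fold, with a gap of 0.67 log2 between the lowest array labelled Gli3T and the highest labelled empty vector. BCL3 is the gene whose window above carries the kappaB match.

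The remaining members are genes named for their response to TNF, to lipopolysaccharide or to early growth signals. TNFAIP2 encodes a TNF-induced protein related to the exocyst that takes part in the formation of thin membrane bridges between cells (probe set 7977046). It read 11.52, 11.54 and 11.56 log2 in the arrays labelled Gli3T, against 10.35, 10.58 and 10.55 in the arrays labelled empty vector. This was the largest difference of the 10 genes, 1.04 ± 0.09 log2 (SE, n = 3 each) or 2.06-fold, and the widest gap, 0.94 log2. LITAF encodes a membrane protein of late endosomes and lysosomes named for its induction by lipopolysaccharide (probe set 7999468). It read 12.00, 11.94 and 11.99 log2 in the arrays labelled Gli3T, against 10.99, 11.40 and 11.21 in the arrays labelled empty vector, a difference of 0.77 ± 0.12 log2 (SE, n = 3 each). IER3 encodes an early response protein that modulates cell survival and feeds back on NF-kB (probe set 8178435).

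IER3 was read from the authors' selected table alone, because its probe set was not among those of the larger table used here. In that table the sixth sample column had slipped against its rows, so Gli3T replicate 3 was left out. IER3 read 12.65 and 12.68 log2 in the remaining arrays labelled Gli3T, against 11.91, 12.18 and 12.01 in the arrays labelled empty vector. The difference was 0.63 ± 0.08 log2 (SE, n = 2 and 3) or 1.55-fold.

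**Figure D1:**
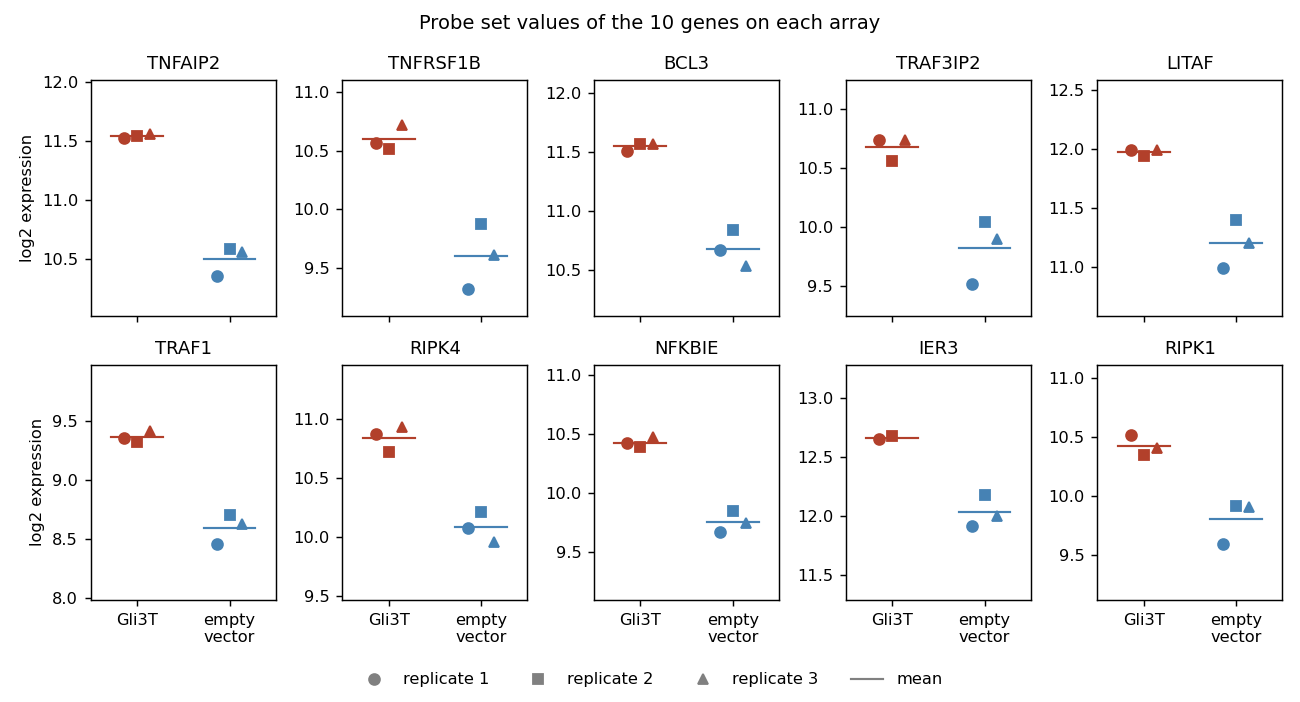
Log2 expression (vertical axis, spanning 2.0 log2 in each panel) of the 10 genes in the arrays labelled Gli3T (left) and labelled empty vector (right). Marker shapes give the replicate and short lines the group mean. In all 10 panels the points of the groups do not overlap, and for IER3 the Gli3T group has 2 points.

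Among all 32321 probe sets, 11.4% also had all 3 arrays labelled Gli3T above all 3 labelled empty vector. The members had been selected for a difference in this contrast, so nothing is read from their not overlapping. Ordered by difference, the genes ran TNFAIP2, TNFRSF1B, BCL3, TRAF3IP2, LITAF, TRAF1, RIPK4, NFKBIE, IER3 and RIPK1, and each step between neighbours was smaller than the larger of their SEs. The order is thus not resolved gene by gene. Counted from the highest of the 32321 differences, TNFAIP2 ranked 43, TNFRSF1B 62, BCL3 112, and RIPK1, the last of the 9 ranked, 487. By absolute difference, which does not depend on which group carries which label, the same genes ranked 317, 370, 541 and 1421. The median of the 9 genes was 0.77 log2, against -0.05 over all probe sets and 0.65 over the 398 listed genes with values. Those 398 ran in both directions, from -2.24 to 1.74 log2, but as their median of 0.65 shows, most of them were higher, like the members. The members had been selected from that list, so nothing is read from the distance between these medians or from the members' shared direction. The smallest absolute difference among those 398 was 0.58 log2, close below RIPK1, while the authors' limits for the list are not given in the sources used here.

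**Figure D2:**
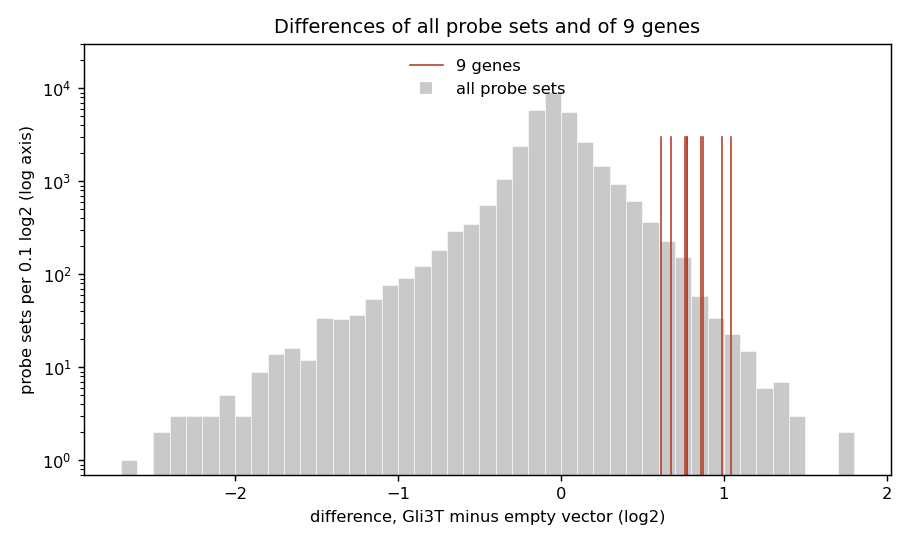
Number of probe sets (vertical log axis) by difference, Gli3T minus empty vector, in bins of 0.1 log2 (horizontal axis), with red lines at the 9 genes read on all 6 arrays. The red lines lie between 0.62 and 1.04 log2, right of the bulk of the 32321 probe sets around -0.05.

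Empty vector replicate 2 was the highest empty-vector array for all 10 genes, and for 24.3% of all probe sets and 30.6% of those at or above the median level. Replicate 1 was the lowest for 8 of the 10, the others being BCL3 and RIPK4. Over all probe sets replicate 1 was lowest in 36.1%, and in 49.5% of those at or above the median level, the range where all 9 members with 6 arrays lay. Replicate 1 minus the mean of replicates 2 and 3 had a median of -0.22 log2 over the 9 genes, against 0.05 over all probe sets and -0.06 over those at or above the median level. With the arrays quantile-normalised, which gives every array the same distribution, the median of the 9 genes was still -0.19. The part of this array's lower values in the differences between the groups was not tested beyond leaving it out.

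Without empty vector replicate 1 the differences of the 9 genes ran from 0.51 log2 for RIPK1 to 0.97 for TNFAIP2, with a median of 0.71. TRAF3IP2 had the largest change, 0.71 log2 without that array against 0.86 with it. TNFRSF1B was 0.85 without it, against 0.99 with it. BCL3 and RIPK4 hardly moved, at 0.87 and 0.75 without that array. IER3 was 0.57 without it, against 0.63. Leaving out empty vector replicate 2 instead placed TNFRSF1B at 1.13 log2, above TNFAIP2 at 1.09, so the first rank rests on that array.

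**Figure D3:**
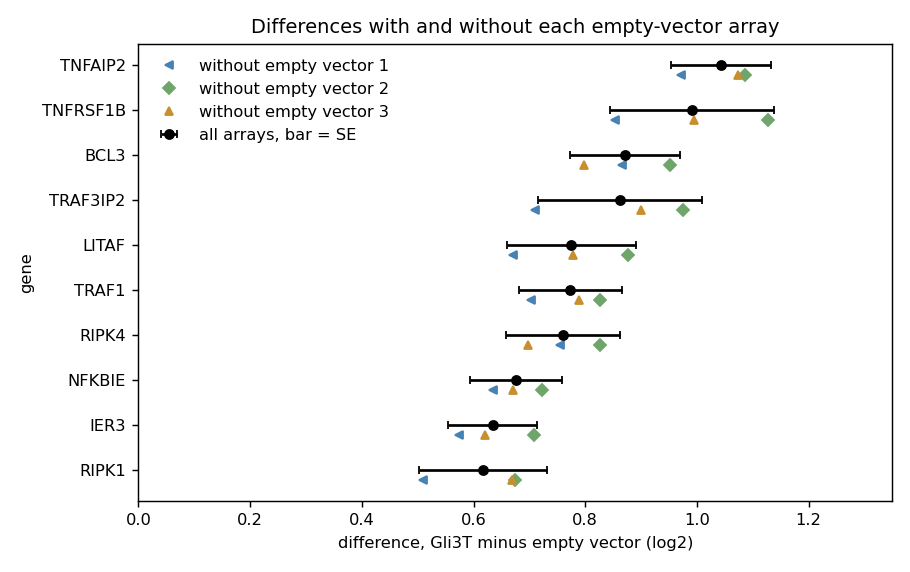
Differences of the 10 genes, Gli3T minus empty vector (horizontal axis, log2), with the SE as bars and with each empty-vector array left out in turn as coloured symbols. TRAF3IP2 and TNFRSF1B move most, from 0.71 to 0.98 and from 0.85 to 1.13 across the arrays left out.

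The arrays labelled Gli3T agreed more closely. The median SD of the 9 genes was 0.05 log2 in the arrays labelled Gli3T and 0.15 in the arrays labelled empty vector, and for all 9 genes the SD was larger in the empty-vector arrays. This was a property of the arrays at large, since the medians over all probe sets were 0.08 in the arrays labelled Gli3T and 0.18 in the arrays labelled empty vector. Within the arrays labelled Gli3T, replicate 2 was lowest for 7 of the 9 genes and replicate 3 highest for 7. Of all probe sets at or above the median level, replicate 2 was lowest in 48.2% and replicate 3 highest in 30.9%. With each gene centred on its own mean, the members averaged 0.42, 0.35 and 0.45 log2 in replicates 1, 2 and 3 labelled Gli3T. In the arrays labelled empty vector these means were -0.56, -0.25 and -0.41. RIPK4, TNFRSF1B and TRAF3IP2 were the most scattered in the arrays labelled Gli3T, with SDs of 0.11, 0.10 and 0.10.

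TRAF1 and LITAF lay closest to the mean centred profile of the 9 genes, at Euclidean distances of 0.08 and 0.10 log2 over the 6 arrays, and TNFAIP2 and RIPK1 farthest, both at 0.30. Among 389 other listed genes with values, the 5 nearest to that mean profile were STAT5A, NDST2, SLC12A7, KIAA1522 (now NHSL3) and PYCARD, at distances of 0.07 to 0.10. STAT5A, NDST2 and SLC12A7 lay nearer to it than any member did, so the profile was not particular to the members. STAT5A, a transcription factor of cytokine signalling, read 10.19, 10.17 and 10.29 log2 in the arrays labelled Gli3T, against 9.30, 9.59 and 9.41 in the arrays labelled empty vector. PYCARD, an inflammasome adaptor, read 10.88, 10.91 and 10.93 log2 in the arrays labelled Gli3T, against 9.94, 10.32 and 10.10 in the arrays labelled empty vector. All 5 had empty vector replicate 1 as their lowest array, as TRAF1 and LITAF did. The points share their arrays, so the likeness is a description.

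**Figure D4:**
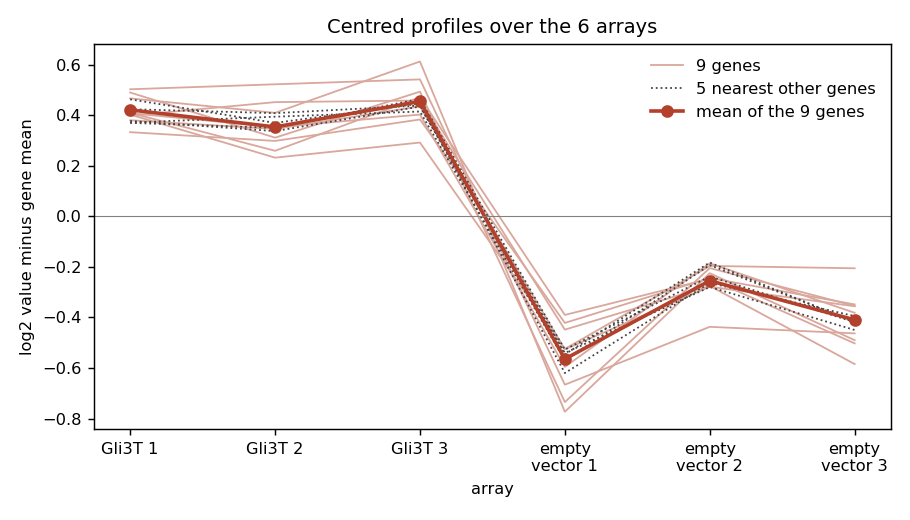
Log2 value minus the mean of each gene (vertical axis) on the 6 arrays (horizontal axis) for the 9 genes, their mean and the 5 nearest other genes. The mean lies between 0.35 and 0.45 in the arrays labelled Gli3T and between -0.56 and -0.25 in the arrays labelled empty vector.

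The wider pathway was followed through lists holding 188 further genes, namely TNF superfamily ligands and receptors, adaptors and RIP kinases, ubiquitin enzymes, the IKK module, NF-kB subunits with IkB proteins, and reported NF-kB targets. Gene names came only from the authors' list, so 10 of the 188 could be read. Of those 10, 8 were called higher and 2 lower in the arrays labelled Gli3T (limma adjusted p 0.0132 to 0.0374), beside 2.47% of all probe sets. Of the 398 listed genes with values, 391 were called in the same fit. The readable genes had all been selected for a difference, so the calls of these 10 were to be foreseen and say nothing about the pathway as a whole. Without Gli3T replicate 1, 2 or 3 none of the 10 was called by limma, and without empty vector replicate 3 CXCL8 alone was called, with 1 gene lower and 0 higher. The authors' list did not name NFKBIA, NFKBIB, NFKBIZ, TNFAIP3, TRAF2, TRAF3, TRAF5, TRAF6, RIPK2, RIPK3, TNFRSF1A, TRADD, NFKB1, NFKB2, RELA, RELB or IKBKB. These genes were therefore not analysed here. The members are thus only the part of the pathway that was listed as differing, and whether these other genes differed was not tested.

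On the ligand side, TNFSF10, which encodes the death receptor ligand TRAIL, was higher by 1.19 ± 0.17 log2 (SE, n = 3 each). It read 10.82, 10.63 and 10.63 log2 in the arrays labelled Gli3T, against 9.13, 9.64 and 9.75 in the arrays labelled empty vector. In the IKK module, IKBKE, an IKK-related kinase, was higher by 0.78 ± 0.08 log2 (SE, n = 3 each). Of 8 readable targets, 6 were higher, led by the transcription factor gene IRF1 (0.97 ± 0.16 log2, SE), the caspase-8 inhibitor gene CFLAR (0.88 ± 0.13) and STAT5A (0.79 ± 0.10).

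CXCL8, listed in the file under its older name IL8, ran opposite to the members. This neutrophil chemokine gene, a textbook NF-kB target, read 8.35, 8.35 and 8.33 log2 in the arrays labelled Gli3T, against 9.61, 9.72 and 10.12 in the arrays labelled empty vector. The log2 difference was -1.47 ± 0.14 (SE, n = 3 each). RCAN1, a calcineurin inhibitor gene, was also lower, with a log2 difference of -0.63 ± 0.10 (SE, n = 3 each). Both genes, like the members, came from the authors' list and had been selected for a difference in this contrast.

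None of the epithelial, leukocyte, fibroblast or endothelial marker genes fixed for these cells could be read by name, so the labelled cell line was not checked against markers here.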

How the data were processed

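The deposited log2 values came from biotin-labelled RNA on Affymetrix arrays, per the labels. The submitters' processing notes name RMA, oligo and limma with no version. Annotation and build are not given in the sources used here. The whole table held 32321 probe sets without gene names. The selected table named 405 genes, 398 of them in the whole table, and was used for names and for IER3. Its 139 displaced rows held no member. For the 9 other members its first 5 sample columns lay within 0.014 log2 of the whole table, while the sixth differed by at least 0.61. Its 1 unnamed column was not used.

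Groups came from sample titles. limma 3.58.1 in R 4.3.3 was fitted to all 6 arrays with Benjamini-Hochberg adjustment over all probe sets, and was tested on simulated data. SEs are limma's moderated ones, except for IER3, whose SE comes from its arrays' SDs. Python 3.11.15 was used for the rest. Members, gene lists and tests were chosen with earlier results of these data known. The genes named were the members, GLI3, PTCH1, fixed family relatives, up to 3 called genes per list and direction with the largest differences, and the 5 nearest profiles. Same-numbered arrays were not paired. The number of arrays limits the precision.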

Additional observations from a re-analysis of the deposited data

How the results depend on the processing

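The 798 calls and their split into 454 higher and 344 lower depended on the setting. There were 1446 calls (962 higher) among probe sets at or above the median level, 7104 (3110 higher, 3994 lower) with array weights, 1292 (744 higher, 548 lower) with a mean trend, 31 (12 higher, 19 lower) at an adjusted p of 0.01, and 534 at 1.5-fold or more (270 higher). Centring each array on its median gave 559 calls with 200 lower, and 1 lower among the 10 other pathway genes. Leaving out 1 array gave 0 to 2178 calls, 0 to 1051 higher and 0 to 1127 lower; for the other pathway genes it gave 0 to 8 higher and 0 to 2 lower. The cause was not tested. With 1 array left out, GLI3 differed by -1.40 to -1.25 log2 and the median of the 9 members was 0.71 to 0.88. Of 117 member differences under all alternatives, 115 moved by less than 1 SD, none reversed, and 2 moved by more, both with array weights: BCL3 to 0.74 and LITAF to 0.61 log2. The groups did not overlap, so leaving out an array could not reverse them. With the replicate number as a block there were 240 calls (51 higher, 189 lower), and 1 higher and 1 lower among the other pathway genes; deviations of arrays sharing a number had correlations of -0.30, -0.14 and 0.04, so the numbers were not taken as pairs. Averaging several probe sets of a gene was not run. Each named gene had 1 in the authors' list, and further probe sets of these genes could not be found without gene names. Signal over background was not known.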
